A study of Mus musculus with 9 samples.

Results

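The 10 genes described here are switched on by ERK signalling, and most of them restrain it. They were measured in mouse pluripotent cells and comprise the MAP kinase phosphatase genes Dusp4, Dusp5 and Dusp6, the inhibitor genes Spry1, Spry2, Spry4, Spred1 and Spred2, and the ETS factor genes Etv4 and Etv5. They were chosen by name as 10 of the 18193 genes measured, and all 10 were on the array. RNA was measured on 9 Affymetrix Mouse Genome 430 2.0 arrays, 3 biological replicates in each of 3 groups. The first group held embryonic stem cells (ESCs), which stand for the naive state and grew in N2B27 medium with 1000 U/ml LIF plus 250 ng/ml Wnt3a. The second held epiblast stem cells (EpiSCs), which stand for the later, primed state, given IWP2, an inhibitor of Porcupine that stops cells from releasing Wnt proteins. The third held EpiSCs given vehicle. Both EpiSC groups grew in N2B27 medium with 20 ng/ml Activin A plus 12 ng/ml bFGF, on gelatine with FCS, and all cells are labelled C57BL/6. The sources used here give neither the cell lines nor the dose and duration of IWP2. The treatment protocol speaks of Wnt3a following IWP2, with fresh medium before it, and EpiSCs given Wnt3a are not analysed here. Whether the vehicle and IWP2 groups had this change of medium is not given.

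FGF binding to its receptor activates Ras, Raf, MEK and ERK in turn, and active ERK drives transcription of its own brakes. Dual-specificity phosphatases remove the activating phosphates from ERK, Sprouty and Spred proteins act upstream between the receptor, Ras and Raf, and the PEA3 group factors Etv4 and Etv5 carry the signal to further target genes. The RNA of these genes is therefore widely used as a readout of the pathway. FGF/ERK signalling helps ESCs to leave the naive state, and EpiSCs are grown with added FGF.

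Values are RMA log2 signals, so a difference of 1 is a 2-fold change. A gene is called where limma gave an adjusted p under 0.05 over all 18193 genes, and 95% confidence intervals are those of single genes. Replicates of a group correlated at 0.9965 to 0.9976 over all probe sets, and no arrays were duplicates. The lower quartile of all values was 3.72, and all 10 genes had a mean over the 9 arrays above the median of 5.24. The markers matched the labels: Zfp42, a naive marker, was at 12.98 in ESCs, 2.47 with IWP2 and 2.54 with vehicle, and Fgf5, a primed marker, was at 3.28 in ESCs, 8.38 with IWP2 and 10.86 with vehicle. Pou5f1, which encodes Oct4 and marks both states, was at 12.12 in ESCs, 11.61 with IWP2 and 11.30 with vehicle.

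**Figure D1:**
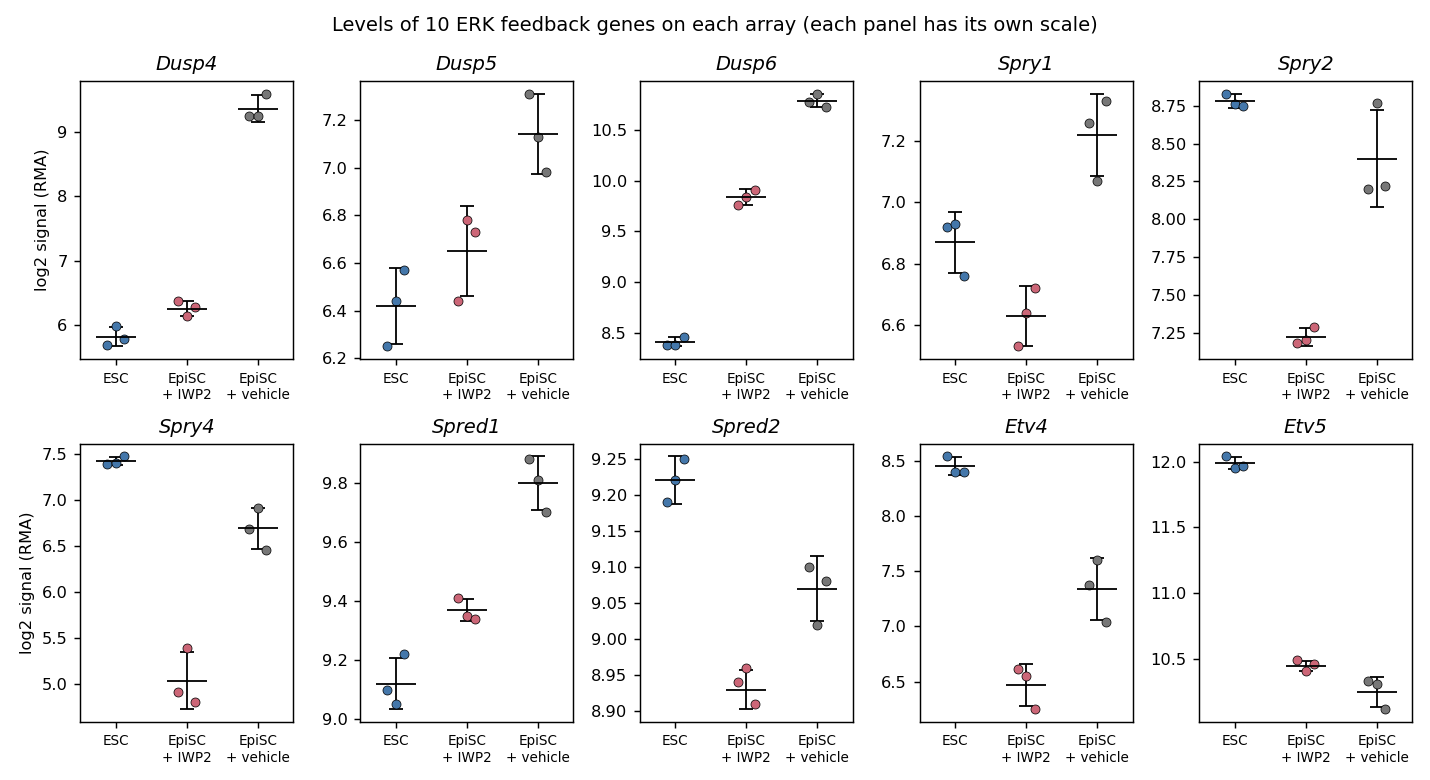
Log2 signal of each gene on the 9 arrays, by group; points are arrays, the wide bar is the mean and the whiskers are the SD (n = 3), and each panel has its own axis. The 3 phosphatase genes were highest in EpiSCs with vehicle, Etv4 and Etv5 were highest in ESCs, and the Sprouty and Spred genes were divided.

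The first comparison set EpiSCs with IWP2 against EpiSCs with vehicle. Of the 10 genes, 8 fell, 1 rose and 1 was not called. In all, 33.5% of genes were called, 16.8% as lower and 16.6% as higher. At least 2-fold falls were seen for 3 of the 10 and at least 2-fold rises for 0, against 2.81% and 0.901% of all genes. The median difference was -0.73 for the 10 genes and 0.03 for all genes. No gene of the 10 had overlapping groups, which held for 47.0% of all genes.

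Dusp4 encodes a nuclear phosphatase of ERK and other MAP kinases and moved most. Its log2 signal was 6.37, 6.14 and 6.29 on the IWP2 arrays, against 9.25, 9.24 and 9.59 on the vehicle arrays. All IWP2 arrays lay about 3 units below the vehicle arrays, a difference of -3.10 ± 0.112 (SE) or 8.55-fold (limma adjusted p = 4.06e-08). It ranked at place 65 among the falls of all genes. Dusp6 encodes a cytoplasmic phosphatase selective for ERK. It was at 9.76, 9.84 and 9.91 with IWP2, against 10.78, 10.86 and 10.73 with vehicle, and fell by 0.95 ± 0.062 (adjusted p = 2.59e-06), just short of 2-fold. The intervals of the 2 differences, -3.35 to -2.84 for Dusp4 and -1.09 to -0.81 for Dusp6, lay apart. Dusp5, a nuclear phosphatase selective for ERK, was at 6.44, 6.78 and 6.73 with IWP2, against 7.31, 7.13 and 6.98 with vehicle, the smallest fall of the 3 (-0.49 ± 0.120, adjusted p = 0.0111).

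The 250 bases before the transcription start of Dusp5 and Dusp6 are shown, picked after their motif matches were seen. They are RefSeq sequences of GRCm38.p6, at chr19:53528895-53529144 (plus strand) for Dusp5 and chr10:99262981-99263230 (plus strand) for Dusp6. Capitals mark matches on either strand.
Dusp5: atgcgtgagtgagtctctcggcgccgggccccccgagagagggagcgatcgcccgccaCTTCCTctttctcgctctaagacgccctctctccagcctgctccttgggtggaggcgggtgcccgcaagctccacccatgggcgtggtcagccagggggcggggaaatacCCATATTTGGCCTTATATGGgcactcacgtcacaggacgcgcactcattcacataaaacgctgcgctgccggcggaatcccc
Dusp6: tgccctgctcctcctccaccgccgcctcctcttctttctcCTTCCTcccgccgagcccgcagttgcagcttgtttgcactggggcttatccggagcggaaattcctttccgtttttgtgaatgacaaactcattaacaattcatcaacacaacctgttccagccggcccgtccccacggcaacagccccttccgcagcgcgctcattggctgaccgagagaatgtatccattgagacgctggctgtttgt
The motifs searched were AGGAAG (the PEA3 motif), CCGGAAG (an ETS core), TGANTCA (AP-1), TGACGTCA (the cyclic AMP response element), ATCAAAG (TCF/LEF) and the CArG box bound by SRF. AGGAAG occurred on the minus strand in both windows, 192 bases before the start of Dusp5 and 210 bases before that of Dusp6, and in 29.5% of 32851 promoter windows. Dusp5 also held 2 CArG boxes, CCATATTTGG and CCTTATATGG, which began 82 and 72 bases before the start and adjoined without overlap. A CArG box occurred in 1.47% of all windows. Windows were found for 7 of the 10 genes and not for Dusp4, Spry4 or Etv4. Of the 7, 3 held any match, the third being Spred2, not called with IWP2, with 2 matches to AGGAAG. Spry1, Spry2 and Spred1, which fell with IWP2, and Etv5, which rose, held no match. A match is a description of these letters and not a binding site.

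Sprouty genes fell in the same comparison, all 3 of them called. Spry4 was at 4.92, 5.39 and 4.81 with IWP2, against 6.68, 6.91 and 6.46 with vehicle, and fell by 1.65 ± 0.150 (limma adjusted p = 2.77e-05). This value rests on 1 of 4 probe sets. The other 3, all with means below the median signal, differed by -0.05, 0.09 and 0.10 and were not called, and the mean of all 4 gave -0.38 and was called. Spry2 was at 7.18, 7.20 and 7.29 with IWP2, against 8.20, 8.77 and 8.22 with vehicle (-1.17 ± 0.132, adjusted p = 0.000112). Its second probe set also fell (-0.63 ± 0.198, adjusted p = 0.0367 over all probe sets). Spry1, at 6.53, 6.64 and 6.72 with IWP2, against 7.26, 7.07 and 7.33 with vehicle, fell less (-0.59 ± 0.086, adjusted p = 0.000588).

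Spred proteins inhibit the activation of Raf by Ras. On the probe sets used, Spred1 and Spred2 moved less than the Sprouty genes of the 10. The 95% intervals of Spred1 (-0.58 to -0.28) and Spry1 (-0.78 to -0.40) overlapped, and Spred3, outside the 10, fell more than Spry1 (-0.93). Spred1 was at 9.41, 9.35 and 9.34 with IWP2, against 9.88, 9.81 and 9.70 with vehicle, and fell by 0.43 ± 0.067 (limma adjusted p = 0.000877). Of its 7 other probe sets, 2 were called lower (-0.33 and -0.37) and 5 were not called (-0.23 to 0.15), and the mean of all 8 gave -0.21 and was called. Spred2 was at 8.94, 8.96 and 8.91 with IWP2, against 9.10, 9.02 and 9.08 with vehicle. Although the arrays did not overlap, the Spred2 difference of -0.13 was not called (95% interval -0.25 to -0.02, adjusted p = 0.0791). The interval allows a fall of at most 0.25.

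The PEA3 group genes of the 10 took opposite signs. Etv1, listed with the further ETS genes, was not measured. Etv4 was at 6.61, 6.55 and 6.25 with IWP2, against 7.37, 7.60 and 7.04 with vehicle, and fell by 0.86 ± 0.139 (limma adjusted p = 0.00104). Its second probe set fell by 1.32 ± 0.218 (adjusted p = 0.00131 over all probe sets). Etv5 was at 10.49, 10.41 and 10.46 with IWP2, against 10.33, 10.31 and 10.12 with vehicle. This rise, 0.20 ± 0.067 (adjusted p = 0.0415), was the only one among the 10 genes and was small. The call was lost without vehicle replicate 3 (0.14, adjusted p = 0.116) and without any one of the 3 IWP2 or 3 ESC arrays (0.19 to 0.22). The other 2 Etv5 probe sets had the same sign, 0.23 and 0.24. The 95% interval of 0.05 to 0.36 leaves out a fall of the size seen for Etv4, whose interval was -1.18 to -0.55.

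**Figure D2:**
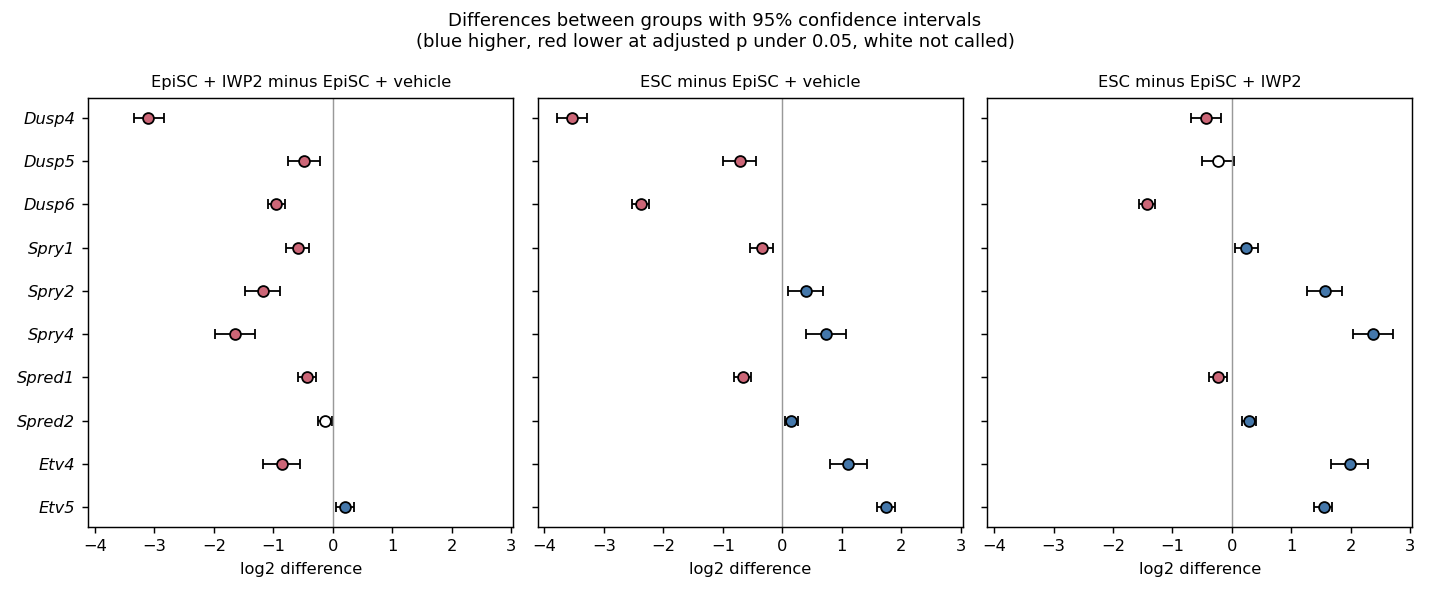
Log2 difference of each gene in the 3 comparisons, with 95% confidence intervals; blue points were called higher, red points lower and white points were not called. With IWP2, 8 of 10 genes lay left of 0, called, while against either EpiSC group the ESCs had Etv4 and Etv5 to the right and Dusp4 and Dusp6 to the left.

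Definitive endoderm markers moved with the same contrast. Of 11 such genes, 10 fell by at least 2-fold with IWP2, and their mean log2 signal per array was 3.97 to 4.09 with IWP2, against 8.42 to 8.57 with vehicle. With IWP2 3 of the 11 were at or below the lower quartile of all values, and with vehicle 0. Foxa2, an endoderm factor, was at 4.04 with IWP2 and 10.11 with vehicle. Mesoderm and streak markers had 4 falls and 1 rise among 10, with means of 4.72 to 4.92 with IWP2 and 5.52 to 5.82 with vehicle. The 10 fibroblast markers had 4 falls and 2 rises, with means of 6.14 to 6.25 with IWP2 and 6.55 to 6.89 with vehicle. Of 8 neural markers, 3 rose and 2 fell, with means of 6.22 to 6.32 with IWP2 and 6.82 to 6.96 with vehicle. The neural mean was lower mainly through Hesx1 (-5.45), picked after its value was seen. Median differences were -0.11 for the mesoderm and streak list, -0.19 for the fibroblast list and 0.17 for the neural list. Of 9 primed epiblast markers, 3 rose and 4 fell, with means of 9.98 to 10.05 with IWP2 and 10.65 to 10.74 with vehicle, and among them the keratin gene Krt18 was at 9.02 with IWP2 and 12.17 with vehicle. The part of these cells in the falls of the ERK feedback genes was not tested. In RNA of whole cultures, fewer cells that express a gene and less RNA per cell cannot be told apart. RNA quality was read from control probe sets as the 3' value minus the 5' value. For actin it was 0.64 to 0.69 with IWP2 and 0.53 to 0.59 with vehicle. For Gapdh the groups overlapped, at -0.03 to 0 with IWP2 and -0.06 to -0.02 with vehicle. The part of RNA quality was not tested either.

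Other genes that ERK induces fell alongside. All 12 measured genes of this list were called lower with IWP2, 8 of them by at least 2-fold, against 16.8% and 2.81% of all genes. Their median was -1.18. The list was drawn from immediate early genes and published sets of ERK-dependent transcripts. It was chosen with earlier results of these data known, so its counts are a description and not independent support. The zinc finger gene Egr1 was at 7.80 ± 0.044 with IWP2 and 10.19 ± 0.037 with vehicle (SD, n = 3), a fall of 2.39. The AP-1 gene Fos fell by 1.95 and Egr2 by 1.77. Egr2 ended at 3.48, below the lower quartile of all values, so its fall is a lower limit. Myc (-1.72) and Phlda1 (-1.48), a pleckstrin-homology domain gene, followed, chosen here after their values were seen.

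Further feedback and ETS genes moved less evenly. Falls were called for 6 of the 12 measured and rises for 2, with a median of -0.11. Spred3 (-0.93), Errfi1 (-0.81), an inhibitor of the EGF receptor, and Il17rd (-0.55), the membrane inhibitor also called Sef, fell. Ets1 rose by 1.64 ± 0.162 and Elk1, a partner of SRF, by 0.33. Among 10 other dual-specificity phosphatase genes, only Dusp1 (-0.34) fell and only Dusp14 (0.30) rose, and 8 were not called. That share of calls, 20.0%, was below the 33.5% of all genes.

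The cascade itself was measured for 16 of 23 listed genes, of which 6 rose, 2 fell and 8 were not called (median 0.15). The Ras exchange factor gene Sos1 fell by 0.99 and the MEK gene Map2k2 by 0.55, and the adaptor gene Gab1 (0.76), Sos2 (0.57) and the RSK kinase gene Rps6ka3 (0.41) rose. Among 14 FGF ligand and receptor genes, 5 rose and 2 fell. The ligand genes Fgf8 (-2.70) and Fgf5 (-2.48) fell, and Fgf4 (1.89) and Fgf15 (1.58) rose. The receptor gene Fgfr1 rose by 0.26 (limma adjusted p = 0.0199).

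**Figure D3:**
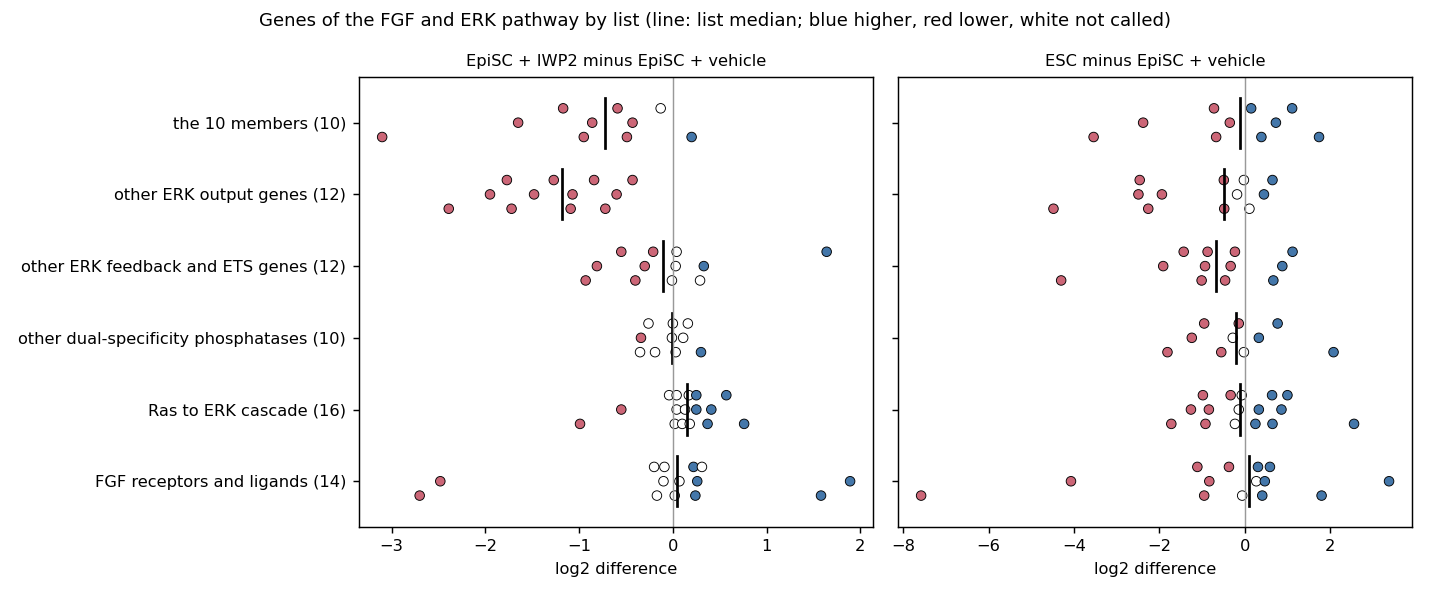
Log2 differences of the 10 genes and of 5 further lists of the FGF and ERK pathway (number measured in brackets), for EpiSCs with IWP2 and for ESCs, each minus EpiSCs with vehicle; each point is a gene, and the upright line is the list median. With IWP2, all 12 other ERK output genes lay left of 0 while the cascade had a median of 0.15.

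The second comparison set ESCs against the same vehicle EpiSCs, so both comparisons share 3 arrays, and cell type and medium changed together. All 10 genes were called, 5 higher and 5 lower, in a comparison that called 66.6% of all genes, 38.7% as higher and 27.9% as lower. The median difference was -0.10 for the 10 genes and 0.12 for all genes. At least 2-fold differences were 2 in each direction, against 6.87% of all genes higher and 9.63% lower. Arrays did not overlap for 9 of the 10, against 71.0% of all genes. All 3 phosphatase genes of the 10 were lower, Etv4 and Etv5 were higher, and the Sprouty and Spred genes were divided, with 3 higher and 2 lower.

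Markers of other cell types differed in this contrast too. Of the 11 definitive endoderm markers, 10 were lower in ESCs by at least 2-fold, with means per array of 4.20 to 4.27 in ESCs, against 8.42 to 8.57 with vehicle, and 4 of the 11 were at or below the lower quartile in ESCs and 0 with vehicle. The 10 mesoderm and streak markers had 4 higher and 4 lower, with means of 4.88 to 4.93 in ESCs and 5.52 to 5.82 with vehicle. The 10 fibroblast markers had 1 higher and 6 lower, with means of 5.40 to 5.45 in ESCs and 6.55 to 6.89 with vehicle. The 8 neural markers had 3 higher and 4 lower, with means of 5.87 to 6.01 in ESCs and 6.82 to 6.96 with vehicle. Median differences were 0.11 for the mesoderm and streak list, -0.42 for the fibroblast list and -0.26 for the neural list. The 3' minus 5' actin value was 0.64 to 0.66 in ESCs and 0.53 to 0.59 with vehicle. That of Gapdh overlapped, at -0.04 to 0 in ESCs and -0.06 to -0.02 with vehicle. The part of these cells and of RNA quality in the differences of the ERK feedback genes was not tested.

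Dusp4 was at 5.70, 5.99 and 5.79 in ESCs, a difference from the vehicle arrays of -3.54 ± 0.112 (11.6-fold, limma adjusted p = 1.81e-09). Dusp6 was at 8.38, 8.38 and 8.46 in ESCs and differed by -2.38 ± 0.062, or 5.21-fold (adjusted p = 4.58e-10). Both groups were narrow, and the ESC and vehicle arrays of each gene were far apart. Dusp5, at 6.25, 6.44 and 6.57 in ESCs, was lower by a smaller step (-0.72 ± 0.120, adjusted p = 0.000452).

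Etv5 was at 12.04, 11.95 and 11.97 in ESCs and higher by 1.74 ± 0.067, or 3.34-fold (limma adjusted p = 7.74e-09). Its other probe sets gave 2.15 and 1.82. Etv4, at 8.54, 8.40 and 8.40 in ESCs, was higher by 1.11 ± 0.139 (adjusted p = 5.57e-05), and its second probe set by 0.86. Etv4 and Etv5 thus lay above every vehicle array on every ESC array.

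Spry4 was at 7.39, 7.40 and 7.47 in ESCs and higher than with vehicle by 0.73 ± 0.150 (limma adjusted p = 0.00175). All 3 of its other probe sets were called higher too, by 0.32 to 0.69. Spry2, at 8.83, 8.76 and 8.75 in ESCs, was higher by 0.39 ± 0.132 (adjusted p = 0.0255), but its ESC and vehicle arrays overlapped through vehicle replicate 2 at 8.77. The Spry2 call was lost without vehicle replicate 1 (0.29), vehicle replicate 3 (0.30) or ESC replicate 1 (0.36), and was 0.57 without vehicle replicate 2. Its second probe set gave 1.06 ± 0.198 (adjusted p = 0.000942 over all probe sets).

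Spry1 went the other way. It was at 6.92, 6.93 and 6.76 in ESCs and lower than with vehicle (-0.35 ± 0.086, limma adjusted p = 0.00515), a call lost when quantile normalization was repeated (-0.19, adjusted p = 0.0729). Spred1, at 9.10, 9.05 and 9.22 in ESCs, was lower too (-0.67 ± 0.067, adjusted p = 9.98e-06). Of its 7 other probe sets 6 were called lower, and the one left, at a mean of 3.68, was not called. Spred2, at 9.19, 9.22 and 9.25 in ESCs, was called higher by 0.15 ± 0.052 (adjusted p = 0.0252). This direction is not settled, since 2 of its 4 other probe sets were called lower (-0.62 and -0.28) and averaging all 5 gave -0.11 and no call. The Spred2 call was also lost without vehicle replicate 2 (0.13), ESC replicate 2 (0.15) or ESC replicate 3 (0.14).

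**Figure D4:**
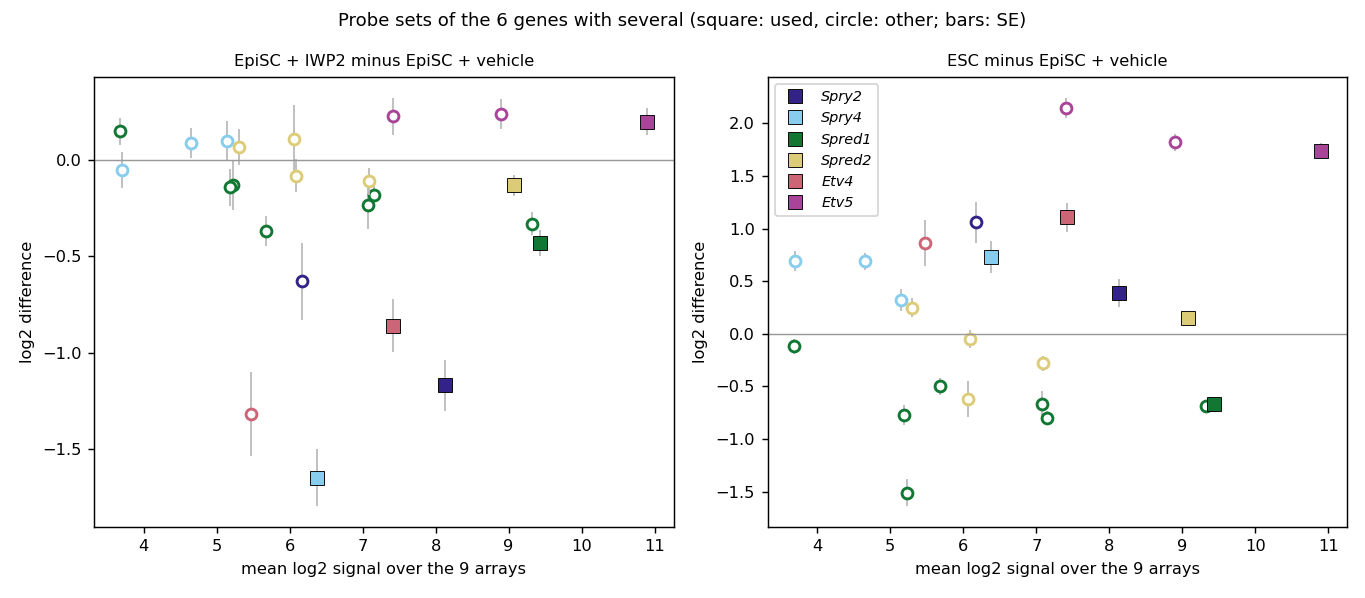
Log2 difference against the mean log2 signal over the 9 arrays for the 24 probe sets of the 6 genes with several; squares are the probe sets used, circles the others, and bars are SE. The Etv5 and Etv4 probe sets keep together in both panels, while the dim Spry4 probe sets lie near 0 for IWP2 and the Spred2 probe sets lie on both sides of 0 for ESCs.

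The other ERK output genes divided in ESCs as well. Of 12, 7 were lower than with vehicle, 2 higher and 3 not called (median -0.48). Egr1, at 5.71 ± 0.238 in ESCs (SD, n = 3), differed by -4.48 and Phlda1 by -2.49, and the cyclin gene Ccnd1 (0.65) and Ier2 (0.45) were higher. Of the 12 further feedback and ETS genes, 9 were lower and 3 higher, with Ets1 at -4.30 and Spred3 at -1.91, and Ets2 at 1.12 and Elk1 at 0.88. Ets1 was at 3.48 in ESCs, below the lower quartile of all values, so its difference is a lower limit.

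Phosphatase genes outside the 10 included one that was much higher in ESCs. Dusp9, which encodes an ERK phosphatase, was at 9.52 in ESCs, 7.44 with IWP2 and 7.44 with vehicle, 2.08 ± 0.056 above vehicle (limma adjusted p = 5.53e-10). Of the 10 other phosphatase genes, 3 were higher and 5 lower in ESCs, with Dusp14 at 0.77, Dusp22 at -1.81 and Dusp3 at -1.24. In the cascade, 7 of 16 genes were higher and 6 lower, led by Gab1 (2.56) and Frs3 (1.0), and by Sos2 (-1.72) and Nras (-1.26). Of the FGF ligand and receptor genes, 6 of 14 were higher and 6 lower, with Fgf4 (3.38) and Fgf17 (1.80), and Fgf5 (-7.58) and Fgf8 (-4.07), at the ends. Fgf5 was below the lower quartile of all values in ESCs, at 3.28, so the size of its difference is a lower limit.

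The third comparison set ESCs against EpiSCs with IWP2. It equals the difference of the other comparisons on the same 9 arrays, so it adds no independent evidence. Cell type, medium and IWP2 changed together. Of the 10 genes, 6 were higher, 3 lower and 1 was not called, where 62.1% of all genes were called, 35.2% as higher and 26.9% as lower. At least 2-fold higher were 4 genes and at least 2-fold lower 1 gene, against 7.87% and 9.40% of all genes. Arrays did not overlap for 9 of the 10, against 67.1% of all genes, and the median difference was 0.26 for the 10 genes and 0.10 for all. Spry4 differed by 2.38 ± 0.150, or 5.20-fold (limma adjusted p = 2.88e-07), Etv4 by 1.98 ± 0.139, Spry2 by 1.56 ± 0.132 and Etv5 by 1.54 ± 0.067. The Spry4 value rests on the probe set used. Of its other 3, the first pair gave 0.73 and 0.60 and were called higher, the last gave 0.22 and was not called, and the mean of all 4 was 0.98 and called. The lower gene was Dusp6 (-1.43 ± 0.062, adjusted p = 1.69e-08). Means per array of the fibroblast markers were 5.40 to 5.45 in ESCs and 6.14 to 6.25 with IWP2. Those of the neural markers were 5.87 to 6.01 and 6.22 to 6.32. Median differences were -0.23 for the fibroblast list and -0.12 for the neural list. Those of the endoderm markers were 4.20 to 4.27 and 3.97 to 4.09, with 4 of 11 called higher and 7 not called (median 0.20). At or below the lower quartile of all values were 4 of the 11 in ESCs and 3 with IWP2. The 3' minus 5' actin value was 0.64 to 0.66 in ESCs and 0.64 to 0.69 with IWP2. That of Gapdh was -0.04 to 0 and -0.03 to 0. The part of these cells and of RNA quality was not tested.

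Dusp4 was lower in ESCs than with IWP2 (-0.44 ± 0.112, limma adjusted p = 0.00638), and Dusp5, whose arrays overlapped, was not called (-0.23, 95% interval -0.50 to 0.04, adjusted p = 0.122). Dusp5 was called without IWP2 replicate 1 (-0.34, adjusted p = 0.0338). Spred1 was lower (-0.24 ± 0.067), and the mean of its 8 probe sets gave -0.51 and was called. Spred2 was higher by 0.28 ± 0.052 on the probe set used, while averaging all 5 probe sets gave -0.08 and no call. Spry1 was higher by 0.24 ± 0.086 (adjusted p = 0.0324), a call lost without IWP2 replicate 1 (0.19), IWP2 replicate 2 (0.25), ESC replicate 1 (0.21) or ESC replicate 2 (0.21) and with the replicate number as a block (adjusted p = 0.0556). Of the other ERK output genes, 7 of 12 were higher in ESCs than with IWP2 and 4 lower (median 0.42), with Myc (1.70) and Ier2 (1.29), and Egr1 (-2.09) and Plat (-1.20), at the ends.

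Placed in order of their group means, the 10 genes fell into 4 patterns. Dusp4, Dusp5, Dusp6 and Spred1 were highest with vehicle and lowest in ESCs, with Dusp5 not differing beyond its spread between ESCs and IWP2. Spry2, Spry4, Spred2 and Etv4 were highest in ESCs and lowest with IWP2, with Spred2 not called between IWP2 and vehicle. With all 5 Spred2 probe sets averaged, ESCs were instead lowest (-0.11 against vehicle and -0.08 against IWP2, neither called). Spry1 was highest with vehicle and lowest with IWP2, and Etv5 was highest in ESCs and lowest with vehicle. Some of these places are unsettled. The Etv5 rise with IWP2 kept its call under 10 of 22 alternatives. The Spry1 difference between ESCs and IWP2 kept it under 16, and the Spry2 difference between ESCs and vehicle under 17. On the probe sets used, ESCs held the lowest mean for 4 genes, IWP2 for 5 and vehicle for 1, and with all probe sets of a gene averaged, ESCs held it for 5, IWP2 for 4 and vehicle for 1.

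On the probe sets used, the 3 genes of the 10 with the widest range of group means were Dusp4 (3.54), Dusp6 (2.38) and Spry4 (2.38). With all probe sets of a gene averaged, Spry4 had a range of 0.98, less than Etv4 (2.08), Etv5 (1.90) and Spry2 (1.63). Outside the 10, the genes whose 9 values lay closest to those of Dusp4, by Euclidean distance after subtracting each gene's own mean, were Moxd1 (distance 0.394), Frem1 (0.466) and Flrt3 (0.684). Frem1 was below the lower quartile of all values in ESCs (3.22) and with IWP2 (3.63), so its differences from vehicle are lower limits. Moxd1 differed by -3.25 with IWP2 and by -3.72 in ESCs, both against vehicle. Nearest to Dusp6 were Ptpn13 (0.387), Pth1r (0.398) and Hipk2 (0.400), and nearest to Spry4 were Ada (0.661), Chmp4c (0.668) and Smoc1 (0.726). With 3 groups these distances mostly describe 2 differences between means, and they are given as a description.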

How the data were processed

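The authors deposited 1 table of log2 values for 45101 probe sets, and RMA and limma are named, without versions, per the submitters' processing notes. RMA evens out the arrays (medians 5.22 to 5.26), which hides any change in the RNA content of a cell, and gives no detection calls. Probe sets with 1 symbol in the platform annotation were kept, control probe sets left out, and each gene was read from its probe set of highest mean signal. Group means were fitted to all 9 arrays with limma 3.58.1 in R 4.3.3 (lmFit and eBayes, 6 residual degrees of freedom, 9.58 after moderation). Tests were two-sided with Benjamini-Hochberg adjustment over 18193 genes. The fit was tested on simulated data. The 10 genes, the lists and the rules were chosen with earlier results of these data known. All 10 genes were named, and of each list the called genes with the largest differences, up to 3 in each direction for IWP2 and 2 elsewhere. Nothing says that replicates came from separate cell lines, and no scan dates were used. The number of arrays limits the precision.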

Additional observations from a re-analysis of the deposited data

How the results depend on the processing

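The results were recomputed under 22 alternatives: other probe set rules, only genes above the median signal, 32 added before taking log2, 3 other normalizations, other variance models, fits of the arrays compared only, an adjusted p under 0.01, a replicate block and leaving out each array. Of 28 called differences, 21 kept direction and call under every one. Falls with IWP2 numbered 7 to 9 (main value 8). The 1 rise, Etv5, was lost (count 0) with every probe set tested on its own, array weights, only the arrays compared, p under 0.01 and the replicate block (adjusted p = 0.0506), and the count ranged from 0 to 1 without single arrays. Genes higher in ESCs than with vehicle numbered 3 at p under 0.01 and 4 to 5 without single arrays. ESC minus IWP2 gave 5 to 6 higher and 3 to 4 lower. As the mean of its probe sets, Spred2 reversed to -0.11 (ESC minus vehicle) and -0.08 (ESC minus IWP2). The cause was not tested. Replicate numbers did not pair the arrays: deviations of equal numbers correlated at -0.06 to 0.051, and 2 of 9 arrays lay closest to their own number. Beside Etv5, the block lost the Spry1 call of ESC minus IWP2 (0.24, adjusted p = 0.0556) and no other. The 3 other Spry4 probe sets had means of 3.70 to 5.14, below the median of 5.24. All 3 were called higher in ESCs than with vehicle (0.32 to 0.69), and none was called with IWP2. Why they differ from the probe set used was not tested.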
